A study of Mus musculus with 42 samples.

Results

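Liver transcripts of C3HeB/FeJ mice, an inbred strain, were compared between 7 days of a high-fat diet (HFD) and a low-fat control diet, as the first of 3 sampling times in a series on early membrane lipid changes and insulin resistance of the liver. The comparison used the 8 arrays labelled 7 days HFD and all 18 control arrays, 26 of the 42 arrays of the series. The other arrays were 8 each after 14 and 21 days of HFD. All mice were male and wild type, housed singly and fed at random, so no group was fasted and no group carried an engineered allele. Mice of the 7-day group were 15 weeks old, those of the 14-day group 16 weeks and those of the 21-day group 17 weeks. Controls were 15 to 17 weeks old after up to 21 days of the low-fat diet and were pooled in the labels, so age could not be matched. Titles of the control and 21-day arrays carry the word reanalysis, and those of the 7-day and 14-day arrays do not. If the word marks a batch, that batch and 7 days of HFD cannot be told apart here. Values are log2 expression after robust multi-array averaging (RMA), and 17989 genes with 1 symbol were tested. The labels do not say that replicates came from separate animals, so p-values here reflect only how far these samples spread, which may in part be technical.

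A fat-rich meal reaches the liver as fatty acids that are burned in mitochondria and peroxisomes, turned into ketone bodies, stored in lipid droplets or exported in lipoproteins. Fatty acids also act as ligands of PPAR-alpha, a nuclear receptor that binds direct repeats of AGGTCA and raises genes of fat breakdown. Sugar is sensed by ChREBP, which binds paired CACGTG-like boxes and raises genes of glycolysis and fat synthesis. The liver also differs between the sexes: the pattern of growth hormone release keeps one set of genes high in males and another high in females.

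After 7 days of HFD, genes of fat breakdown and fat storage were higher, and the falls were fewer and smaller. With limma (Benjamini-Hochberg adjusted p under 0.05 over all genes), 251 of 17989 genes (1.40%) were called, 208 higher (1.16%) and 43 lower (0.239%), an 82.9% share of rises that was 71.2% after quantile normalization (219 genes called). Changes were mostly small: 38 genes changed at least 2-fold, 34 of them upward and 4 downward, while 136 of the called genes changed less than 1.5-fold. For 44 genes (0.245%) all 8 HFD arrays lay outside the range of the 18 controls, 41 above it (0.228%) and 3 below it (0.0167%). Those 3 were Etnppl, C8b and Cryl1. The last, named here after its values were seen, read 6.36 to 6.80 in controls and 6.02 to 6.35 at 7 days. Of the called genes, 162 passed in each of 26 fits that left out 1 array, and 71 passed both with the HFD arrays numbered 1 to 4 alone and with those numbered 5 to 8 alone.

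**Figure D1:**
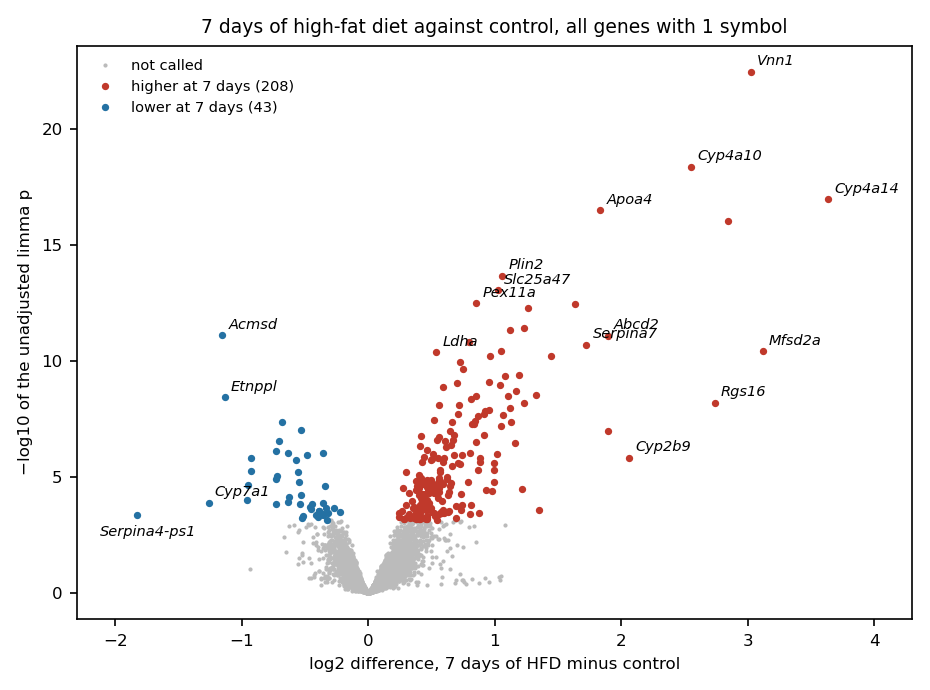
Each point is 1 of 17989 genes. The horizontal axis gives the log2 difference of 7 days of HFD (8 arrays) minus control (18 arrays), the vertical axis −log10 of the unadjusted limma p, and colours mark the 208 genes called higher and the 43 called lower. The farthest points lie on the right, with Cyp4a14 at a log2 difference of 3.64 and Vnn1 at 3.02, while on the left Serpina4-ps1 reaches -1.83.

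Hepatocyte markers stood far above the background level of 2.86 on all arrays, while pancreatic acinar markers varied between arrays. The mean of 10 hepatocyte markers ran from 11.37 to 11.83 in controls and from 11.42 to 11.71 at 7 days. The mean of 19 pancreatic acinar markers, which are enzymes secreted for digestion, ran from 3.35 through a median of 4.20 to 7.75 in controls and from 3.42 through 4.92 to 8.72 at 7 days. None of these 19 genes was called by limma (0 at an unadjusted p under 0.05), with a median log2 difference of 0.74. With arrays of an acinar mean of 6 or more left out (15 controls and 5 HFD arrays stayed), 142 genes were called, 134 of them among the 251. With all arrays kept and the acinar marker mean as a covariate, 297 genes were called, 248 of them among the 251. The part of pancreatic RNA in the results was not tested further. In bulk tissue such as this, fewer cells of a type and less RNA per cell cannot be told apart.

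Promoter sequences of 4 genes that rose are shown because each holds a match to 1 of the motifs searched: a paired box in Pklr, a direct repeat in Fabp1, and in Plin2 and Fgf21 a single CACGTG, which is not the paired form described above. They come from RefSeq (GRCm38.p6, the C57BL/6J reference, not the genome of C3HeB/FeJ). Each runs from 250 bases before to 20 bases after the start site, 5′ to 3′ on the gene's strand, with the match in capitals. The paired-box match of Pklr, liver pyruvate kinase (chr3:89136373-89136642, plus strand), began 170 bases before the start site. The loose direct repeat of Fabp1, the liver fatty acid binding protein (chr6:71199629-71199898, plus strand), began 67 bases before it and reads on the opposite strand. In Plin2, a coat protein of lipid droplets (chr4:86670040-86670309, minus strand), CACGTG began 4 bases before the start, and in Fgf21, a fasting and nutrient hormone (chr7:45615471-45615740, minus strand), 50 bases before it.
Pklr: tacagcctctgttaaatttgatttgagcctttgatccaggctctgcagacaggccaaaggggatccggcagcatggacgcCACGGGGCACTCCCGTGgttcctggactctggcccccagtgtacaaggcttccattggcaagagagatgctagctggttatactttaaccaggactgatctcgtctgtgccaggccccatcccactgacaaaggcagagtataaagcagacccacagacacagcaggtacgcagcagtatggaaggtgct
Fabp1: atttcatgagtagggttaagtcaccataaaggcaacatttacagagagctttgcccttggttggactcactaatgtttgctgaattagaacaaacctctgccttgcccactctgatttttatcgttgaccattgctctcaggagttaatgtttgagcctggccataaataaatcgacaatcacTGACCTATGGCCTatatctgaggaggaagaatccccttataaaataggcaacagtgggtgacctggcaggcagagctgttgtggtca
Plin2: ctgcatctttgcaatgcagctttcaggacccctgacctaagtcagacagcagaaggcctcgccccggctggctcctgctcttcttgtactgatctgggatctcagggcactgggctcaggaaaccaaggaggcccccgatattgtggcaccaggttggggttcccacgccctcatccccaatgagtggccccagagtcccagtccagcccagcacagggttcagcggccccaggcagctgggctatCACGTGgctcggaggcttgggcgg
Fgf21: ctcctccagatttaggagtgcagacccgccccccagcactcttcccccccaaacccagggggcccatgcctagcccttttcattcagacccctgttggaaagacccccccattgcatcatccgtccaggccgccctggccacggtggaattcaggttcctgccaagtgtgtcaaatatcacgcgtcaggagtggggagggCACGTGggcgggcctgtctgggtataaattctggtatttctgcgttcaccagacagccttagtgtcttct
Motifs were searched on both strands in windows of 300 bases, 250 before to 50 after a start site. The search covered 14084 tested genes with an entry, with the genes of 1 chromosome left out. The 6-letter box CACGTG stood in 1349 genes (9.58%), in 28 of 168 genes called higher (16.7%) and in 2 of 36 called lower (5.56%). A pair of boxes with 5 free bases between them (CACGNG, then CNCGTG), which can overlap CACGTG, stood in 9 genes, of which Pklr alone was called. The direct repeat AGGTCA, 1 free base, AGGTCA stood in 8 genes and in 0 called ones. Its looser form with AGGNCA in both places, which includes the stricter one, stood in 60 genes, of which Fabp1 and Cyp2d40, a cytochrome P450 gene, were called. A match is a description of letters, and no test was made of these shares.

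Known targets of PPAR-alpha led the rises. Of 36 measured targets, 22 were called higher and 0 lower, with a median log2 difference of 0.69 against -0.01 over all genes, and for 14 of them all 8 HFD arrays lay above every control. Cyp4a14, a fatty acid omega-hydroxylase, read 2.61, 2.98 and 3.73 (lowest, median and highest) over 18 controls and 5.30, 6.97 and 7.43 over 8 HFD arrays. Even the lowest HFD array stood well above the highest control (log2 difference 3.64, SE 0.26, 12.4-fold, limma adjusted p = 6.22e-14). Its controls lay near the background level of 2.86, so this fold is counted from near that level. Cyp4a10, a close relative, went from 3.78, 4.29 and 4.77 to 6.48, 6.92 and 7.35, and Cyp4a31 from 2.95, 4.15 and 5.17 to 6.37, 6.94 and 7.48, again without overlap. Probe sets of these near-identical genes can bind each other's transcripts, so their values are not separate evidence. The male-specific relative Cyp4a12a differed by -0.03 (adjusted p = 0.955) and was not called.

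Vnn1, a pantetheinase that releases cysteamine, had the smallest p of all genes. It read 2.96, 3.23 and 3.60 in controls, near the background level of 2.86, and 5.80, 6.26 and 6.83 at 7 days (log2 difference 3.02, SE 0.15, 8.13-fold, limma adjusted p = 6.17e-19). Vnn3, of the same family, rose from a median of 5.34 to 6.59 (2.72-fold, adjusted p = 5.04e-08). Ppara itself, the receptor gene, read 6.84, 7.47 and 7.93 in controls and 7.65, 8.20 and 8.50 at 7 days (log2 difference 0.65, SE 0.14, limma adjusted p = 0.00265), with 5 of 8 HFD arrays above every control. Angptl4, a secreted inhibitor of lipoprotein lipase, rose by 0.57 (adjusted p = 0.000908) and Retsat, a retinol saturase, by 0.58 (adjusted p = 0.0310). Retsat was lost after quantile normalization (adjusted p = 0.0722) and without HFD array 1, 2, 3, 4, 6 or 8. Listed targets that were not called included Pdk4, a kinase that holds back pyruvate oxidation (log2 0.54, adjusted p = 0.450), and Plin5, a droplet coat gene of oxidative tissues (log2 0.42, adjusted p = 0.0753).

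**Figure D2:**
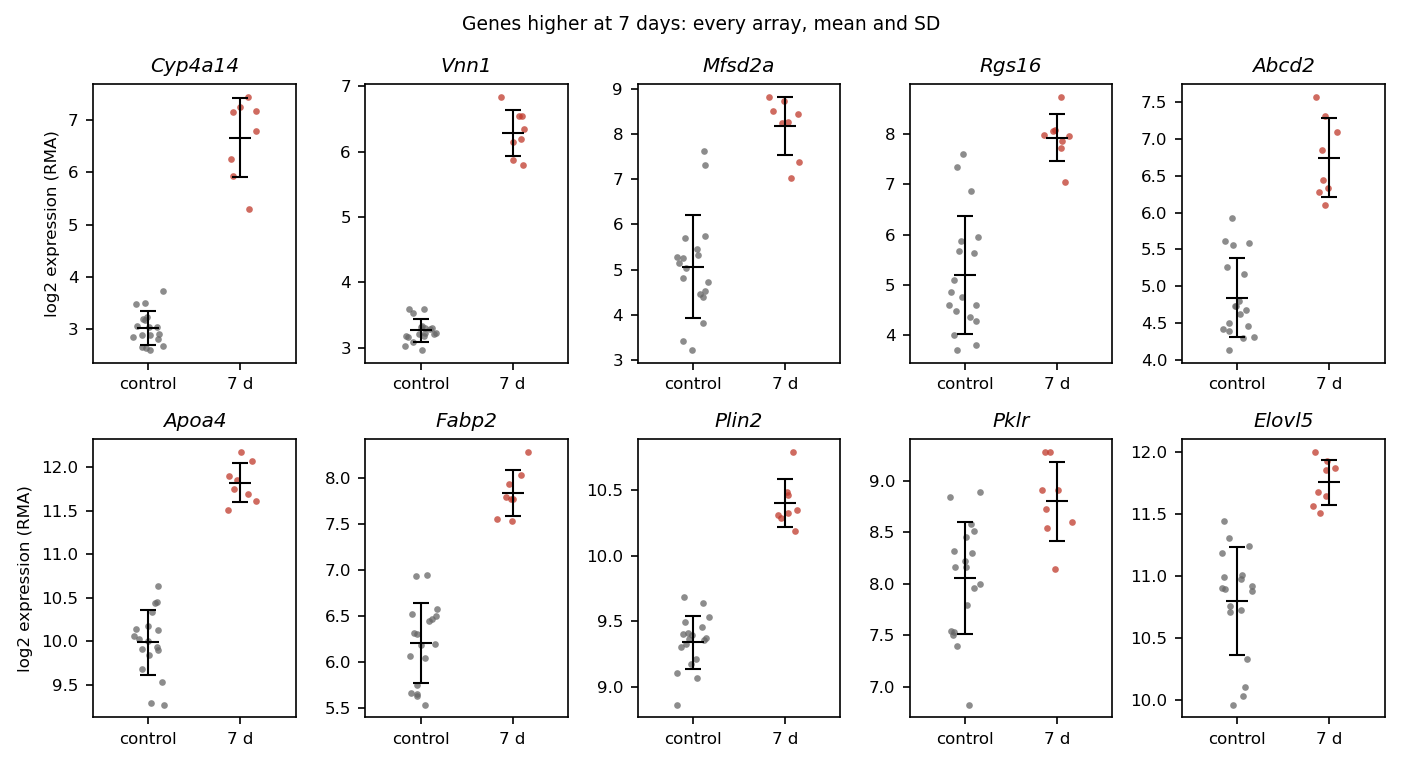
Log2 expression on every array for 10 genes called higher at 7 days, with 18 control and 8 HFD points a panel; the bar and whiskers give the mean and SD. Cyp4a14, Vnn1, Abcd2, Apoa4, Fabp2, Plin2 and Elovl5 show no overlap between the groups, whereas controls of Mfsd2a reach 7.64, those of Rgs16 7.60 and those of Pklr 8.89, inside the range of the HFD arrays.

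Mitochondrial fatty acid oxidation rose by less than 2-fold per gene. Of 24 measured genes, 10 were called higher and 0 lower, with a median log2 difference of 0.37; 22 of the 24 lay above 0. Slc25a20, which carries acylcarnitines into the matrix, read 7.49, 8.0 and 8.48 in controls and 8.20, 8.59 and 8.82 at 7 days (log2 difference 0.55, limma adjusted p = 0.000321). Acadl, a long-chain acyl-CoA dehydrogenase, went from 7.34, 7.92 and 8.26 to 8.11, 8.66 and 8.86 (0.68, adjusted p = 4.93e-05). These ranges overlapped by a few arrays, 6 of 8 HFD arrays lying above every control for either gene. The 2 subunits of the trifunctional protein rose together, Hadhb by 0.70 (SE 0.09, adjusted p = 6.07e-07, 7 of 8 arrays above every control) and Hadha by 0.49 (adjusted p = 0.000375). Hadh, the hydroxyacyl-CoA dehydrogenase of shorter chains, rose by 0.52 with all 8 arrays above every control. Decr1 and Eci2, which handle the double bonds of unsaturated fatty acids, rose by 0.65 and 0.71. Acadvl (0.23, adjusted p = 0.205), Acadm (0.37, adjusted p = 0.184) and Cpt2 (0.38, adjusted p = 0.445), other enzymes of the same pathway, did not pass. Of the 10 called genes 9 passed in every leave-one-out fit and 7 with the acinar-rich arrays left out.

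Of 7 measured ketone body genes 4 were called higher and 0 lower, with a median log2 difference of 0.51; 6 of the 7 lay above 0. Bdh1, which interconverts the 2 main ketone bodies, read 8.19, 8.64 and 8.85 in controls and 9.06, 9.43 and 9.65 at 7 days, without overlap (log2 difference 0.75, SE 0.09, 1.68-fold, limma adjusted p = 1.80e-07). Acat1, the acetoacetyl-CoA thiolase, rose by 0.51 (adjusted p = 0.000235). The monocarboxylate transporters Slc16a1 and Slc16a7, which move ketone bodies and lactate, rose by 0.47 and 0.56 (adjusted p = 0.0108 and 0.00184). Slc16a1 missed the threshold after quantile normalization (adjusted p = 0.0533).

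Peroxisomal oxidation had 9 of 35 measured genes higher and 0 lower, and all 9 passed in every leave-one-out fit, after quantile normalization and without the acinar-rich arrays. Abcd2, a peroxisomal importer of very long-chain acyl-CoA, read 4.14, 4.71 and 5.92 in controls and 6.10, 6.64 and 7.56 at 7 days (log2 difference 1.89, SE 0.21, 3.72-fold, limma adjusted p = 1.06e-08). Pex11a, which drives peroxisome division, went from 5.88, 6.25 and 6.44 to 6.79, 7.06 and 7.33 (0.86, adjusted p = 7.37e-10). No HFD array overlapped the controls for either gene. Crat, a carnitine acetyltransferase shared with mitochondria, rose 2.29-fold and Ehhadh, the bifunctional enzyme of peroxisomal oxidation, 1.79-fold, each with all 8 arrays above every control. Acaa1b, a peroxisomal thiolase, rose by 0.86. Acyl-CoA thioesterases, which free fatty acids from coenzyme A, were called for 4 of 13 measured genes of their list: Acot1 (0.93), Acot2 (1.1), Acot3 (1.07) and Acot4 (1.04). Their adjusted p ran from 6.71e-07 for Acot4 to 8.90e-06 for Acot3, and as near-copies they may share signal.

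Entry and binding of fatty acids had 6 of 16 measured genes higher and 0 lower. Mfsd2a, a transporter of lysophosphatidylcholine, had the second largest rise of all genes but also spread widely among controls, which read 3.21, 5.09 and 7.64 against 7.03, 8.37 and 8.82 at 7 days. Of the 8 HFD arrays 6 lay above every control (log2 difference 3.12, SE 0.36, 8.69-fold, limma adjusted p = 3.89e-08). Cd36, a fatty acid translocase, went from 3.89, 5.37 and 6.18 to 5.75, 7.41 and 8.44 (3.72-fold, adjusted p = 3.41e-05), with 7 of 8 above every control. Fabp2, the intestinal-type binding protein, read 5.53, 6.25 and 6.95 in controls and 7.54, 7.79 and 8.29 at 7 days (3.10-fold, adjusted p = 7.37e-10). Fabp1, whose promoter is shown above, read 11.57, 11.88 and 12.50 in controls and 12.18, 12.40 and 12.58 at 7 days, with 3 of 8 arrays above every control (log2 difference 0.47, adjusted p = 0.00363). Without the acinar-rich arrays 3 of the 6 genes were called.

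Of 23 measured lipid droplet genes 7 were called higher and 0 lower, and 16 lay above 0. Of the 7, 4 were called without the acinar-rich arrays. Plin2 read 8.86, 9.37 and 9.68 in controls and 10.19, 10.34 and 10.79 at 7 days (log2 difference 1.06, SE 0.09, 2.08-fold, limma adjusted p = 6.36e-11). Mgll, which splits monoglycerides, went from 6.13, 6.95 and 7.51 to 7.66, 7.94 and 8.39 (1.05, adjusted p = 3.89e-08), like Plin2 without overlap. Fitm1, a protein that helps droplets form, rose by 0.92 with 7 of 8 arrays above every control. Pnpla3, a droplet lipase, rose by 1.0 (SE 0.21, adjusted p = 0.00253), with 4 of 8 arrays above every control and the HFD arrays spread from 4.04 to 6.44. G0s2, an inhibitor of the main triglyceride lipase, rose by 0.74 (adjusted p = 0.0249) and was lost after quantile normalization (adjusted p = 0.140) and in 4 leave-one-out fits.

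Triglyceride assembly had 4 of 16 genes called higher and fatty acid synthesis 4 of 19, with 0 lower in either. Gpam stood in both lists. After quantile normalization 2 of the 4 assembly genes were called, and without the acinar-rich arrays 2 of the 4 synthesis genes. Gpam, which begins triglyceride synthesis at glycerol 3-phosphate, read 8.21, 9.29 and 10.10 in controls and 9.96, 10.45 and 11.17 at 7 days (log2 difference 1.16, SE 0.19, 2.24-fold, limma adjusted p = 9.11e-05). The phosphatidate phosphatase genes Lpin2 and Lpin1 rose by 0.99 (adjusted p = 0.000501) and 0.88 (adjusted p = 0.0305), but no HFD array of Lpin1 lay above the highest control, and Lpin1 was lost without HFD array 1, 2, 3, 6 or 8 and after quantile normalization (adjusted p = 0.0645). Acaca, the acetyl-CoA carboxylase that commits carbon to fatty acids, read 5.28, 6.41 and 7.65 in controls and 6.91, 7.42 and 8.02 at 7 days (0.98, adjusted p = 0.00485). Me1, malic enzyme, rose by 0.81 (adjusted p = 0.0160; lost without HFD array 1 or 2). Fasn, the fatty acid synthase, differed by as much (1.08, SE 0.31) but did not pass (adjusted p = 0.0686): its controls ran from 6.59 to 9.69 and its HFD arrays from 8.42 to 10.31. Scd1, a desaturase of saturated fatty acids, differed by 0.47 (adjusted p = 0.245) and Srebf1, a regulator of fat synthesis, by 0.13 (adjusted p = 0.904).

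Enzymes that lengthen and desaturate polyunsaturated fatty acids had 5 of 16 measured genes higher and 0 lower, all 5 kept in every leave-one-out fit. Fads2 read 9.03, 10.29 and 10.70 in controls and 10.78, 11.60 and 11.88 at 7 days (log2 difference 1.33, SE 0.18, 2.51-fold, limma adjusted p = 1.79e-06). Elovl5 went from 9.96, 10.90 and 11.44 to 11.51, 11.76 and 11.999 (0.96, adjusted p = 5.91e-06), and Elovl2 from 9.48, 10.16 and 10.56 to 10.71, 11.05 and 11.31 (0.95, adjusted p = 5.74e-07). None of these ranges overlapped. Fads1, the partner desaturase, rose by 0.99 with 6 of 8 arrays above every control. Kdsr and Cers6, of sphingolipid synthesis, rose by 0.67 and 0.55, 2 of 32 measured genes of that list (6.2%, against 1.40% of all genes). Of these 2, 1 was called without the acinar-rich arrays. Of 18 genes of cholesterol synthesis and uptake 1 was called by limma, Mvd (0.60, adjusted p = 0.0306), or 5.6% against 1.40% of all genes. An unadjusted p under 0.05 was reached by 5 of the 18, against 9.28% of all genes, and 17 of the 18 lay above 0. Mvd was lost after quantile normalization (adjusted p = 0.112) and without any of the HFD arrays 1 to 6.

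Genes known to answer to sugar rose as well, although the carbohydrate content of the diets is not stated in the labels used here. The list of fructose handling and carbohydrate response had 8 of 19 measured genes higher and 0 lower (median 0.40). Rgs16, a regulator of G-protein signalling, read 3.70, 4.81 and 7.60 in controls and 7.04, 7.98 and 8.74 at 7 days, with 7 of 8 HFD arrays above every control (log2 difference 2.74, SE 0.38, 6.68-fold, limma adjusted p = 3.11e-06). Pklr went from 6.82, 8.17 and 8.89 to 8.14, 8.82 and 9.28, an overlapping range (0.74, adjusted p = 0.0156; lost without HFD array 1 or 2). Khk, the first enzyme of fructose use, rose by 0.40 (adjusted p = 0.00139) and Tkfc, a later one, by 0.69 (adjusted p = 0.0434; 0.121 after quantile normalization). Gpd2, the mitochondrial glycerol phosphate dehydrogenase, rose by 0.89 (adjusted p = 0.000452) and Klf10, a transcription factor, by 0.47 (adjusted p = 0.0380; 0.111 after quantile normalization). Without the acinar-rich arrays 3 of the 8 were called, and 4 of 8 passed in every leave-one-out fit.

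Of 29 genes of glycolysis, gluconeogenesis and glycogen, 5 were higher and 0 lower. Pklr, given above, was 1 of the 5. Ldha, lactate dehydrogenase, differed between groups that did not overlap: 10.35, 10.68 and 11.07 in controls and 11.10, 11.20 and 11.37 at 7 days (log2 difference 0.54, SE 0.06, limma adjusted p = 4.05e-08). Gys2, liver glycogen synthase, rose by 0.59 (adjusted p = 0.0250; lost without HFD array 1, 2, 3, 6 or 8) and Gbe1, the glycogen branching enzyme, by 0.47 (adjusted p = 0.00314). The gluconeogenic genes G6pc (0.40, adjusted p = 0.674) and Pck1 (0.27, adjusted p = 0.749) varied by over 2 log2 units among controls and were not called. Without the acinar-rich arrays 1 of the 5 was called.

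The list of lipoproteins and sterol transport had 5 of 26 measured genes higher and 0 lower, and that of secreted hepatokines 4 of 27 higher and 1 lower. Of these calls, 3 of the 5 lipoprotein genes and 2 of the 5 hepatokines passed without the acinar-rich arrays. Apoa4, an apolipoprotein of triglyceride-rich particles, read 9.27, 10.02 and 10.64 in controls and 11.51, 11.80 and 12.18 at 7 days (log2 difference 1.84, SE 0.14, 3.57-fold, limma adjusted p = 1.42e-13). Pltp, which moves phospholipids between lipoproteins, rose by 1.21 (adjusted p = 0.00418), with 4 of 8 arrays above every control. Sar1b, a small GTPase for large secretory carriers, rose by 0.43 (adjusted p = 0.00904; 0.0985 after quantile normalization). Fgf21 went from 4.51, 5.16 and 5.79 to 5.87, 6.22 and 6.87 without overlap (1.12, adjusted p = 4.58e-06), and Inhbe, an inhibin subunit, rose by 0.81 (adjusted p = 0.0320; 0.0737 after quantile normalization). Enho, which encodes adropin, fell by 0.63 on the log2 scale (adjusted p = 0.0134). Thyroid and glucocorticoid response genes were higher for 5 of 24 and lower for 0 (3 of the 5 called without the acinar-rich arrays). Among them Serpina7, thyroxine-binding globulin, rose 3.31-fold, from 4.59, 5.61 and 6.40 to 6.52, 7.32 and 8.06, with no array overlapping.

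Transporters of organic ions had 9 of 46 measured genes higher and 0 lower, all 9 kept in every leave-one-out fit. Slc10a2, the sodium-dependent bile acid transporter, rose from 4.91, 6.06 and 6.77 to 6.35, 7.22 and 7.82 (log2 difference 1.23, SE 0.17, 2.35-fold, limma adjusted p = 3.11e-06). Slc17a8, a vesicular glutamate transporter, rose by 1.02, and Slc17a4, an organic anion carrier, by 0.74 with all 8 arrays above every control. Slc22a5, the carnitine importer, rose by 0.56 (adjusted p = 0.00571). Slc25a47, a liver carrier of the inner mitochondrial membrane, read 8.65, 9.14 and 9.59 in controls and between 10.07 and 10.37 at 7 days (1.02, adjusted p = 2.29e-10). It was 1 of 2 called among 43 mitochondrial carriers (4.7%, against 1.40% of all genes), the other being Slc25a20.

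Of 43 aldehyde and aldo-keto enzymes 2 were higher and 2 lower (2 of the 4 called without the acinar-rich arrays). Aldh3a2, a fatty aldehyde dehydrogenase, read 7.38, 7.99 and 8.61 in controls and 9.04, 9.24 and 9.58 at 7 days (log2 difference 1.26, SE 0.12, 2.40-fold, limma adjusted p = 9.69e-10). Dhrs4, a peroxisomal carbonyl reductase, rose by 0.42. Akr1c19, an aldo-keto reductase, fell by 0.62 (adjusted p = 0.00863) and Hsd17b2, which oxidises sex steroids, by 0.36 (adjusted p = 0.0362; lost in 12 leave-one-out fits). Ugt3a1, a glycosyltransferase, rose by 0.85 with all 8 arrays above every control.

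**Figure D3:**
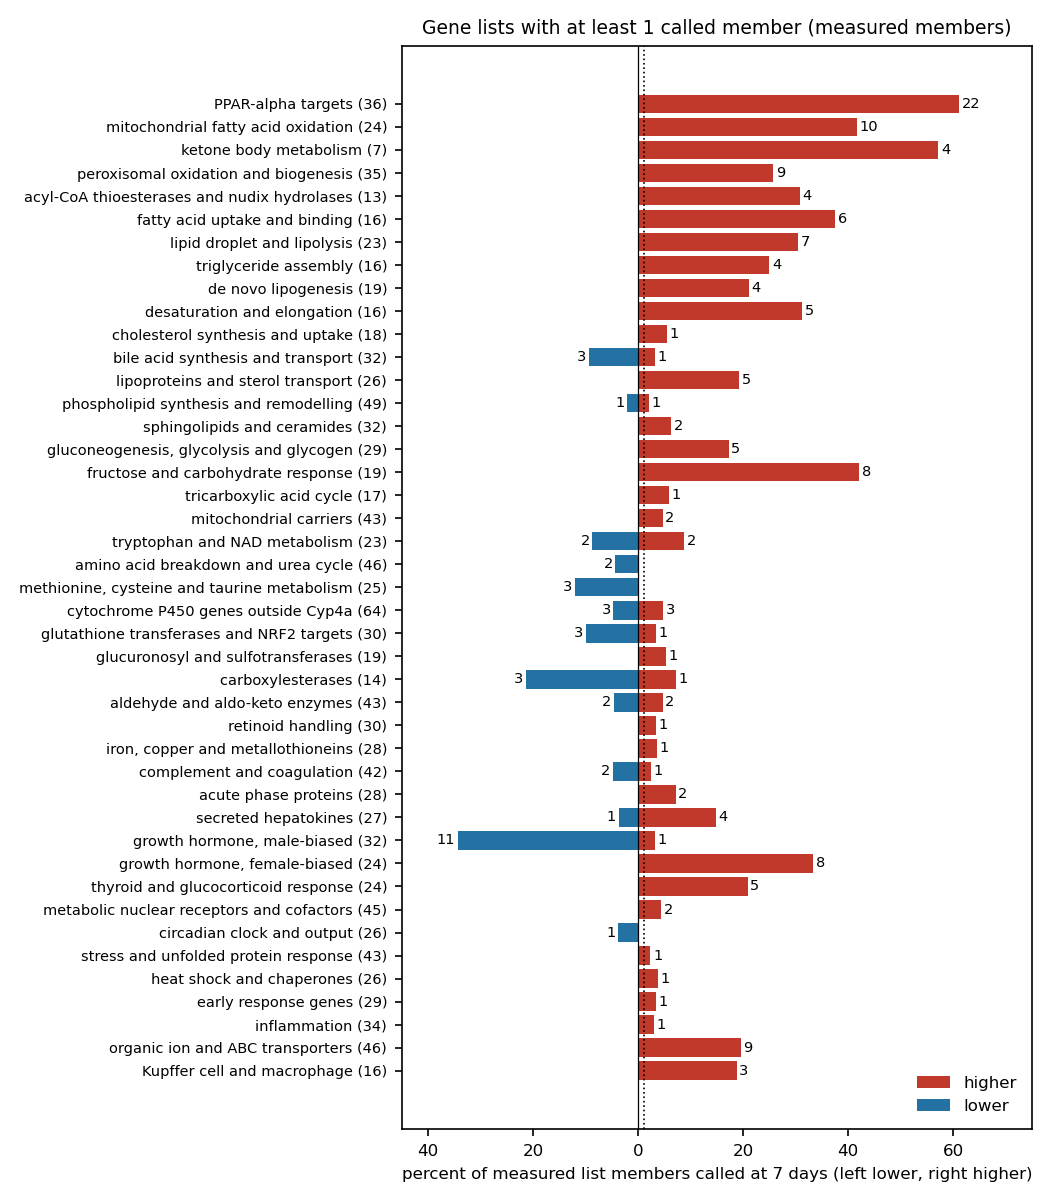
For each gene list with at least 1 called gene, the bars give the percent of measured members called higher (right) or lower (left) at 7 days, with the count at the bar's end and the number measured in brackets. The dotted line marks the 1.16% of all genes that were called higher; bars of PPAR-alpha targets (22), ketone body metabolism (4) and carbohydrate response (8) reach far to the right, and the male-biased list (11 lower) far to the left.

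Bile acid synthesis showed most of its called genes falling. Of 32 measured genes of bile acid synthesis and transport, 3 were lower and 1 higher. The bile acid transporter Slc10a2, which rose by 1.23, was counted with the organic ion transporters above and not in this list. Cyp7a1, the rate-limiting enzyme of the classical route, read 7.27, 9.24 and 10.39 in controls and 5.69, 7.89 and 8.59 at 7 days (log2 difference -1.26, SE 0.30, 2.40-fold lower, limma adjusted p = 0.0136). The ranges overlapped widely, with 1 of 8 HFD arrays below every control. Cyp7b1, of the alternative route, read 10.16, 10.71 and 11.28 in controls and 9.02, 9.74 and 10.51 at 7 days (-0.93, adjusted p = 0.000324), 6 of 8 arrays lying below every control. Cyp2c70, which makes muricholic acids, fell by 0.56 (adjusted p = 0.00110), and Abcb4, which puts phosphatidylcholine into bile, rose by 0.73 (adjusted p = 0.000507). Of the 4, Cyp7a1 missed the threshold when HFD array 4, its lowest, was left out (log2 difference -0.97, adjusted p = 0.0792).

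Lists of nitrogen and sulfur metabolism held genes called in both directions. Acmsd, a decarboxylase that steers tryptophan products away from NAD, read 4.94, 5.97 and 6.59 in controls and 4.56, 4.75 and 5.17 at 7 days (log2 difference -1.15, SE 0.12, 2.23-fold lower, limma adjusted p = 1.06e-08). Ddc, an aromatic amino acid decarboxylase, fell by 0.72 (adjusted p = 0.00158). The NAD genes Nadk, an NAD kinase, and Nmrk1, a nicotinamide riboside kinase, rose by 0.44 and 0.52, so 2 of 23 genes of the list were higher and 2 lower. Csad, which makes the taurine precursor hypotaurine, went from 6.09, 6.82 and 8.04 to 5.71, 6.06 and 6.27 (-0.93, adjusted p = 0.000987). Gnmt, which uses up methyl donors, fell by 0.34 and Ethe1, a sulfur dioxygenase, by 0.41 (lost in 10 leave-one-out fits), which gave 3 lower and 0 higher of 25 in the methionine and taurine list. Among 46 genes of amino acid breakdown and the urea cycle, 2 were lower and 0 higher (4.3% called, against 1.40% of all genes). These were Hal, which begins histidine breakdown (-0.64, adjusted p = 0.000226), and Prodh, proline dehydrogenase (-0.46, adjusted p = 0.0191). Nmrk1 was lost without HFD array 2, 3, 5 or 8 and Prodh without HFD array 1 or 7. Without the acinar-rich arrays 3 of the 4 calls of the tryptophan and NAD list passed, 1 of 3 of the methionine list and 1 of 2 of the amino acid list.

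Etnppl, a phospho-lyase that breaks down phosphoethanolamine, a precursor of phosphatidylethanolamine, was lower on every HFD array than on any control. Its controls read 8.59, 9.13 and 9.50 and its HFD arrays 7.15, 8.07 and 8.24, so no values overlapped (log2 difference -1.13, SE 0.15, 2.19-fold lower, limma adjusted p = 1.98e-06). It was 1 of 2 genes called among 49 of phospholipid synthesis and remodelling (4.1%, against 1.40% of all genes), with Mfsd2a the other. An unadjusted p under 0.05 was reached by 12 of the 49, against 9.28% of all genes.

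Genes that are higher in male than in female liver fell in 11 of 32 measured cases, with 1 higher and a median log2 difference of -0.31. Hsd3b5, a steroid dehydrogenase of male liver, read 8.12, 8.95 and 10.04 in controls and 7.74, 8.40 and 8.55 at 7 days (-0.73, SE 0.17, limma adjusted p = 0.0146; 0.0721 without HFD array 2). Gstp1, a glutathione transferase, went from 11.36, 12.08 and 12.47 to 10.86, 11.41 and 11.71 (-0.72, adjusted p = 0.00194). Both ranges overlapped, with 2 and 4 of 8 HFD arrays below every control. Egfr, the epidermal growth factor receptor, fell by 0.96 (adjusted p = 0.0106; lost without HFD array 5 or 7), Lifr, the leukaemia inhibitory factor receptor, by 0.73 (adjusted p = 0.000185) and Obp2a, an odorant-binding lipocalin, by 0.95 (adjusted p = 0.00321). Serpina4-ps1, a serpin pseudogene, had the largest fall of all (-1.83, SE 0.48, 3.54-fold lower, adjusted p = 0.0363), yet controls ran from 4.49 to 8.71 and HFD arrays from 3.07 to 6.73, and 13 of 26 leave-one-out fits lost it. Ces2e, a carboxylesterase, was the member that rose (0.62, adjusted p = 0.00202). Cyp7b1, C8b, C9 and Gstp1 also stood in other lists described here. Of the 12 called genes 6 passed in every leave-one-out fit, 12 after quantile normalization and 4 without the acinar-rich arrays.

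The female-biased list had 8 of 24 genes higher and 0 lower, but 4 of these, Cyp4a14, Abcd2, Acot3 and Acot4, also stood in the lists of fat breakdown above, and 5 of the 8 were called without the acinar-rich arrays. Cyp2b9, a cytochrome P450 of female liver, read 2.10, 2.53 and 5.33 in controls and 3.38, 4.62 and 6.52 at 7 days (log2 difference 2.06, SE 0.37, limma adjusted p = 0.000320), with 2 of 8 arrays above every control and 1 control at 5.33. Its control mean of 2.67 lay under the background level of 2.86, so no fold is given. Cyp3a44, another P450, rose by 0.69 (adjusted p = 0.0170; 0.0795 after quantile normalization). Rtn4, an endoplasmic reticulum shaping protein, and Aqp4, a water channel, rose by 0.60 and 0.59 (adjusted p = 0.000324 and 0.00301).

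**Figure D4:**
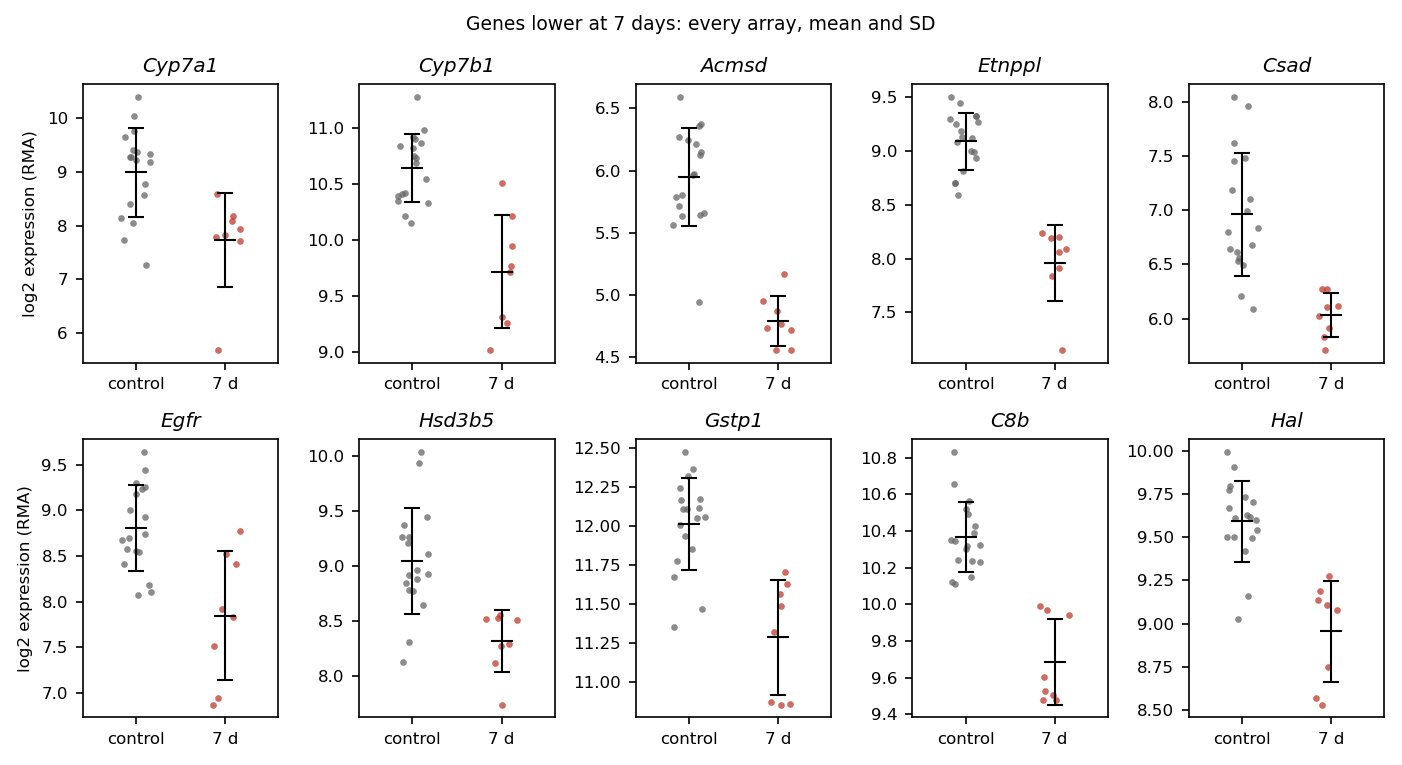
Log2 expression on every array for 10 genes called lower at 7 days, with 18 control and 8 HFD points a panel; the bar and whiskers give the mean and SD. Etnppl and C8b show no overlap between the groups. Most HFD arrays of Cyp7a1 and Hsd3b5 lie within the range of the controls, and 1 HFD array of Cyp7a1 stands alone at 5.69.

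Complement, glutathione and carboxylesterase genes were called in both directions, for 7.1%, 13.3% and 28.6% of their measured members against 1.40% of all genes. Of 42 complement and coagulation genes 2 were lower and 1 higher: C8b, a chain of the membrane attack complex, read 10.11, 10.33 and 10.83 in controls and 9.48, 9.56 and 9.99 at 7 days (log2 difference -0.68, SE 0.10, limma adjusted p = 1.50e-05), C9, of the same complex, fell by 0.52 (adjusted p = 0.0456; lost in 15 leave-one-out fits), and C1qc, a macrophage product, rose by 0.46 (adjusted p = 0.0249). The glutathione transferase and NRF2 list had 3 of 30 genes lower, among them Gsta4 (-0.53, adjusted p = 3.08e-05) and Ugdh, a UDP-glucose dehydrogenase (-0.39, adjusted p = 0.0407; lost in 14 leave-one-out fits). Me1 was the 1 member of that list that rose, and it also stood among the synthesis genes. Of 14 carboxylesterases 3 fell and 1 rose: Ces2a fell by 0.49, Ces3b by 0.45 and Ces1b by 0.45, the latter lost without HFD array 3 and Ces3b without HFD array 2, 4 or 7, while Ces2e, given above, was higher. Without the acinar-rich arrays 1 of the 3 complement calls, 1 of the 4 in the glutathione list and 1 of the 4 carboxylesterase calls passed.

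Markers of Kupffer cells, the resident macrophages of liver, were higher for 3 of 16 measured genes, of which 1 was called without the acinar-rich arrays. Cd68, a lysosomal macrophage protein, read 4.55, 4.89 and 5.23 in controls and 5.07, 5.40 and 5.49 at 7 days (log2 difference 0.44, limma adjusted p = 0.00793). Vsig4, a complement receptor, rose by 0.64 (adjusted p = 0.0270; 0.0847 after quantile normalization, and lost without HFD array 5 or 7) and C1qc, given above, was 0.103 after quantile normalization. The mean over the 16 markers ran from 4.71 through 4.95 to 5.22 in controls and from 5.09 through 5.21 to 5.47 at 7 days, and 1 of the 16 lay under the background level in either group. Lymphocyte markers (0 of 14 called by limma, 2 at an unadjusted p under 0.05) and neutrophil markers (0 of 10, 1 unadjusted) lay close to background, with array means of at most 3.02 and 2.86. The share of macrophages in the tissue was not measured.

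Several groups held 0 genes called by limma at 7 days. Over all genes 1.40% were called and 9.28% had an unadjusted p under 0.05, so 0 called in lists of this size lies near the share over all genes. The respiratory chain and ATP synthase had 0 of 66 called and 2 at an unadjusted p under 0.05, with a median log2 difference of 0.04 and a range from -0.18 to 0.50, although the replicate-block, array-weight and controls 1 to 9 fits each called 1. Insulin signalling had 0 of 36 called and 6 unadjusted, from -0.17 to 0.65; the insulin receptor gene Insr differed by 0.10 (adjusted p = 0.901) and its substrates Irs1 and Irs2 by -0.17 and -0.01. Mitochondrial ribosomal genes (0 of 64, 10 unadjusted), the proteasome (0 of 34, 0 unadjusted), cell cycle genes (0 of 41, 6 unadjusted), interferon response genes (0 of 33, 5 unadjusted), matrix genes (0 of 30, 2 unadjusted) and splicing regulators (0 of 37, 2 unadjusted) had none either. Of 34 inflammation genes 1 was called, Lcn2. The smallest difference called among all genes was 0.22 on the log2 scale, and every called difference was at least 3.65 times its SE (median SE over all genes 0.09), so smaller or more variable changes in these lists could go uncalled.

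A few genes differed at 7 days and stood near the control level at the later times. Such genes were chosen by their values: called at 7 days, not called at 14 or 21 days, and at both later times within 33.3% of the 7-day difference, so no test was made of their return. Of the 251 called genes, 124 were not called at 14 or 21 days (112 higher and 12 lower), and 6 of these met the limit, all higher: Abracl, Nipal1, Sprr1a, Gabarap, Arf4 and Dtx3l. All times were set against the same 18 controls; 120 genes (0.667%) were called at 14 days and 126 (0.700%) at 21 days.

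Abracl, a small regulator of cell movement, came closest to its control level: log2 differences were 0.39 (SE 0.10) at 7 days, -0.0033 at 14 days and -0.03 at 21 days. Its arrays read 4.41, 5.0 and 5.49 in controls and 5.06, 5.44 and 5.75 at 7 days, with 2 of 8 above every control (limma adjusted p = 0.0366). Nipal1, a magnesium transporter, gave differences of 0.56, 0.09 and 0.05 and read 3.11, 3.66 and 4.39 in controls and 3.55, 4.36 and 4.67 at 7 days. For Sprr1a, a small proline-rich protein induced under stress, the differences were 0.43, -0.09 and 0.11 and the 7-day arrays read 3.02, 3.38 and 3.66 against 2.41, 3.01 and 3.31. Its control level lay near the background of 2.86.

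Gabarap, an autophagosome and vesicle protein, gave 0.25, 0.06 and -0.0035, with values of 8.67, 9.08 and 9.32 in controls and 9.13, 9.31 and 9.50 at 7 days. Arf4, a small GTPase of the Golgi, gave 0.38, 0.10 and 0.01, and Dtx3l, a ubiquitin ligase of the interferon and DNA damage responses, 0.41, 0.13 and -0.09. Groups overlapped for all 6 genes, and the 7-day adjusted p ran from 0.0115 for Sprr1a to 0.0447 for Arf4. Each of the 6 calls at 7 days was lost in some leave-one-out fits, from 2 of 26 for Sprr1a to 14 of 26 for Arf4. After quantile normalization Sprr1a alone of the 6 met the rule, and without the acinar-rich arrays 0 of the 6 did. With the acinar marker mean as a covariate 5 of the 6 met it, Dtx3l being the exception.

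Just outside the limit stood Vsig4, at 33.6% of its 7-day difference, Tinf2, a telomere protein (34.4%), Samd9l, an interferon-induced gene (34.5%), and Lcn2 (36.1%). Lcn2, a lipocalin of the acute phase that binds iron carriers, read 3.64, 4.09 and 4.42 in controls, 4.66, 5.24 and 5.54 at 7 days, 3.78, 4.49 and 5.12 at 14 days and 4.10, 4.40 and 5.08 at 21 days. All 8 arrays at 7 days lay above every control (log2 difference 1.12, SE 0.12, 2.17-fold, limma adjusted p = 6.70e-09), against 0.40 and 0.34 at the later times. Cd68, the macrophage marker, gave 0.44, 0.20 and 0.06.

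**Figure D5:**
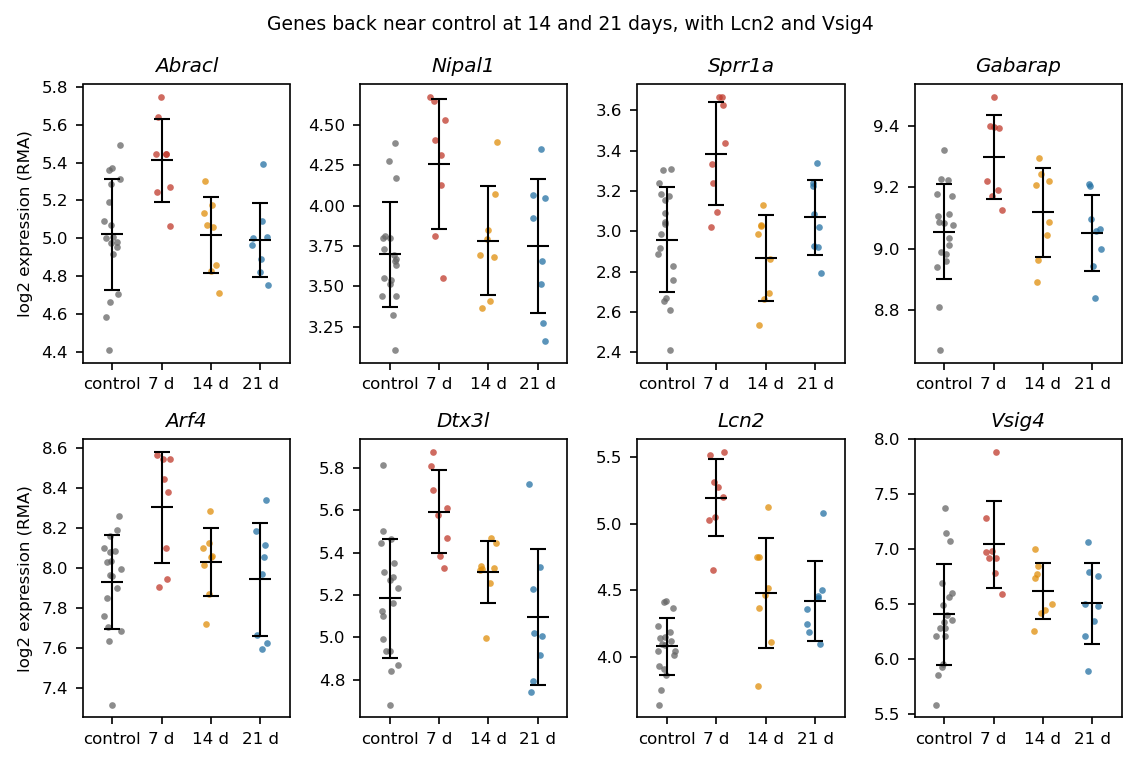
Log2 expression on every array in controls (18) and after 7, 14 and 21 days of HFD (8 each) for the 6 genes back near control and for Lcn2 and Vsig4; the bar and whiskers give the mean and SD. Lcn2 stands above every control at 7 days, while the 6 genes overlap the controls at each time.

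The difference between the HFD times themselves was tested in the same fit. Against 14 days, limma called 0 of 17989 genes (0%), with 451 at an unadjusted p under 0.05. Against 21 days it called 1 (0.00556%; 1283 unadjusted), and against the mean of 14 and 21 days 1 (0.00556%; 854 unadjusted). That gene was Lcn2 in both, 0.77 higher than at 21 days (adjusted p = 0.0284) and 0.74 higher than at the later times together (SE 0.12, adjusted p = 0.00369). Its 0.71 difference from 14 days did not pass (adjusted p = 0.121). Titles of the 21-day arrays carry the word reanalysis, and those of the 7-day and 14-day arrays do not. If the word marks a batch, batch and time cannot be told apart in the comparisons that include 21 days. The Lcn2 difference from the later times did not pass with HFD arrays 1 to 4 alone (adjusted p = 0.256), with arrays 5 to 8 alone (0.113), without the acinar-rich arrays (0.716) or with the replicate number as a block over arrays numbered 1 to 8 (0.0667), and its size stayed between 0.61 and 0.77 in these fits. The difference from 21 days was also lost after quantile normalization (adjusted p = 0.103) and without HFD array 1, 2, 4, 7 or 8. With the acinar marker mean as a covariate, limma called Lcn2 against the later times (adjusted p = 0.00524) and against 21 days (adjusted p = 0.0468). None of the 6 genes back near control passed a test between HFD times, and their later values are given as a description of group means.

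The leading genes of fat breakdown gave the following values at the 3 times, all against the same controls. Cyp4a14 differed from controls by 3.64, 3.0 and 3.53 at 7, 14 and 21 days, Vnn1 by 3.02, 2.96 and 2.83, and Abcd2 by 1.89, 1.84 and 1.63. The median over the 36 PPAR-alpha targets was 0.69, 0.62 and 0.52. Some genes of synthesis and sugar response gave smaller later values: Gpam 1.16, 0.95 and 0.67, Acaca 0.98, 0.76 and 0.48, Me1 0.81, 0.51 and 0.19, and Pklr 0.74, 0.49 and 0.43. Others did not fall at each step: Rgs16 gave 2.74, 2.77 and 2.24 and Klf10 0.47, 0.39 and 0.44. List medians were 0.24, 0.24 and 0.19 for fatty acid synthesis and 0.40, 0.21 and 0.17 for the carbohydrate response list. Plin2 gave 1.06, 0.72 and 0.67, and Slc10a2 1.23, 0.65 and 0.77. The difference between times passed for none of these genes. Cyp2b9 gave 2.06, 1.90 and 3.52, with controls under background, and Etnppl fell by 1.13, 1.27 and 1.52; here too no test between times passed.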

How the data were processed

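Liver RNA was hybridised to Affymetrix whole-transcript arrays; per the submitters' processing notes the authors made the deposited log2 values by RMA in Affymetrix Expression Console 1.1, and no build for the annotation is stated in the sources used here. Of 32624 probe sets, 19559 had 1 gene symbol, 1469 several and 11596 none; 1 lacked a value on 33 arrays and was present on controls numbered 1 to 9 only. The brightest probe set stood for each of 17989 genes (841 had several), with no dim filter and no further scaling. The 95th percentile of 929 olfactory receptor genes, 2.86, served as the background level, and 67.5% of genes lay above it. Arrays carry no read depth, so their number limits the precision. All 42 arrays entered 1 fit of 4 groups in limma 3.58.1 (R 4.3.3), 2-sided, with Benjamini-Hochberg adjustment over all genes, and the script was tested on simulated data.

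Lists were textbook lists, 60 with the marker lists, and both members and lists were chosen with earlier results of these data known. Lists shared members, such as Gpam, Pklr and Mfsd2a, so their counts are not separate evidence. Named genes were the 12 largest rises and falls (predicted genes, small RNA genes and large families of urinary proteins, odour, pheromone and antigen receptors passed over), up to 4 called members a list, and genes back near control; uncalled members were named after their values were seen. Alternatives covered scaling, dim genes, probe sets, array weights, a trend, replicate blocks, array subsets and marker covariates.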

Additional observations from a re-analysis of the deposited data

Results flagged for a closer look

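Among 112 group values checked for a lone high or low array at 7 days, 5 stood out, where chance gives about 1 in 20. Cyp7a1 read 5.69 on HFD array 4, with the nearest other array at 7.71 and the farthest at 8.59. On the same array Etnppl read 7.15 (nearest 7.84) and Ugdh 8.72 (nearest 9.13). Lpin1 read 5.80 on HFD array 7, below the next at 6.71, and Slc25a47 read 10.37 on HFD array 1, above the next at 10.20.

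Lcn2 differed between HFD times by limma: it was 0.74 higher on the log2 scale at 7 days than over 14 and 21 days (adjusted p = 0.00369), with 8 of 8 arrays at 7 days above the control mean. The difference did not pass with either set of 4 HFD arrays, without the acinar-rich arrays or with a replicate block (adjusted p from 0.0667 to 0.716). It passed with the acinar marker mean as a covariate (limma adjusted p = 0.00524). Titles of the 21-day arrays carry the word reanalysis and those of the 7-day and 14-day arrays do not. A possible batch cannot be told apart from time in the part of the comparison that rests on 21 days. Against 14 days alone the difference was 0.71 and did not pass (limma adjusted p = 0.121).

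Probe sets outside the named genes also passed at 7 days in a limma fit over all probe sets. Of 1469 probe sets with several symbols 17 were called (1.16%, 9 higher and 8 lower, from 2.59 to -1.54). Of 11596 with no symbol 22 were called (0.19%, 17 higher and 5 lower, from 1.97 to -1.98). Among the 19558 with 1 symbol 209 were called (1.07%), so the share with several symbols lay near that level and the share with no symbol below it.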

How the results depend on the processing

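No named gene changed direction under an alternative. Counts of called genes at 7 days (251, with 208 higher and 43 lower) moved by over 1.5 times with array weights (605, 477 and 128), with HFD arrays 5 to 8 alone (121, 103 and 18), with arrays 1 to 4 alone (16 lower), without the acinar-rich arrays, an alternative chosen after seeing the data (142, 123 and 19), at an adjusted p under 0.01 (161 called, 20 lower) and with a 1.5-fold minimum (115, 98 and 17). Leaving out 1 array gave 195 to 265 called, 162 to 220 higher and 31 to 48 lower. Of the 251 genes, 192 to 227 stayed called when 1 HFD array was left out, fewest without array 2, and 231 to 243 when 1 control was, and 80 of 111 named genes kept their call in every such fit. Genes back near control numbered 6 and ranged from 2 to 10 when 1 array was left out. They numbered 3 after quantile normalization, 14 after median centring, 10 without dim genes, 57 with array weights, 19 with HFD arrays 1 to 4, 3 with controls 1 to 9, 2 with controls 10 to 18, 15 with Malat1 as covariate, 2 without the acinar-rich arrays, 23 at a looser limit, 2 at a stricter one and 124 with no limit. The 1 gene that differed between 7 days and the later times became 3 with array weights and 0 with either set of 4 HFD arrays or without the acinar-rich arrays, and stood at 1 to 2 when 1 array was left out. The causes were not tested; subsets hold fewer arrays. Arrays carry no depth; no difference under 0.22 was called.

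Shared replicate numbers did not show a pairing of control with 7-day arrays. Arrays of the same number in these 2 groups correlated by -0.373 to 0.357 in their deviations, 2 of 8 pairs above 0.1, and 1 of 8 correlated best with its own number. The correlations were -0.167 to 0.492 for 7 against 14 days and -0.264 to 0.421 for 7 against 21 days, with 5 of 8 pairs above 0.1 in each. The best match was not looked up between HFD times, and whether the number links arrays of different HFD times was not tested. With the number as a replicate block, which keeps the 32 arrays numbered 1 to 8 and 8 controls, 227 genes were called, 184 of them among the 251, with 1 gene back near control and 0 differing between 7 days and the later times.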

Other observations

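Some genes that rose at 7 days stood in none of the lists, and those below were picked after their values were seen. Pctp, a phosphatidylcholine transfer protein, read 5.60, 6.66 and 7.27 (lowest, median and highest) in controls and 7.44, 7.80 and 8.34 after 7 days of HFD, without overlap (log2 difference 1.17, SE 0.16, 2.25-fold, limma adjusted p = 1.20e-06). Nceh1, a cholesteryl ester hydrolase, went from 4.31, 4.71 and 5.15 to 5.22, 5.50 and 5.67 (0.72, adjusted p = 8.95e-08), and Pgm3, of the hexosamine pathway, from 4.80, 5.23 and 5.84 to 5.96, 6.26 and 6.70 (1.05, adjusted p = 2.14e-05). All 8 HFD arrays lay above every control for these genes. Gas6, a ligand of TAM receptors, rose by 0.85 (adjusted p = 8.28e-05), and Aqp8, a water channel of hepatocytes, by 0.65 (adjusted p = 0.00333).

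Slc13a2, a dicarboxylate transporter, fell from 3.15, 3.76 and 4.57 to 2.82, 3.05 and 3.22, with 7 of 8 arrays below every control (log2 difference -0.70, limma adjusted p = 8.13e-05). Nat8, an N-acetyltransferase, fell by 0.53 (adjusted p = 0.00720). Saa2, an acute phase protein, differed by 0.69 and just missed the threshold (adjusted p = 0.0517), at 0.26 below control at 14 days and 0.08 below at 21 days. Its 0.87 difference between 7 days and the later times did not pass (adjusted p = 0.361). Saa2 and Lcn2 are both acute phase genes, and Saa1 differed by -0.20 (adjusted p = 0.805).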
